A study of Mus musculus with 80 samples.

Results

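Kainic acid injected into the hippocampus sets off seizures, neuronal loss, gliosis and later recurrent seizures, and its effect on gene expression in the injected hippocampus is compared here between day 7 and the later days 28 and 60. The measure is a difference of differences: the KA minus sham difference at day 7 minus the mean of the KA minus sham differences at days 28 and 60. It was taken over the 40 arrays of the injected side (IL) out of 80 arrays of the series, for 10903 genes. The 40 arrays of the opposite hippocampus (CL) served for comparison.

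All animals were male C57BL/6J mice, 12 weeks old at surgery. KA mice received 50 nl of 20 mM kainic acid in the right dorsal hippocampus, and sham mice the same volume of saline. The IL groups were KA at day 7 (8 mice) and sham at day 7 (4 mice), KA at day 28 (9) and sham at day 28 (5), and KA at day 60 (9) and sham at day 60 (5), with 1 array per mouse and side. The tissue was bulk hippocampus, in which fewer cells of a type and less RNA per cell cannot be told apart. Sham mice share the surgery and the saline with KA mice, and no animal without surgery was used here.

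Kainic acid is an agonist of a class of glutamate receptors. In the weeks after such an injection microglia, the resident macrophages of the brain, divide, take up debris and change their expression, and astrocytes become reactive. Granule cells and other neurons that survive change their neuropeptides and receptors, and the injected region later generates recurrent seizures.

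Values are deposited log2 values of Illumina bead arrays with equal medians on every array. Between 49.3% and 66.9% of probes were detected per IL array. Of the pan-neuronal markers tested, 6 of 8 were detected on all 40 IL arrays, as were 8 of 8 oligodendrocyte markers, while 0 of 4 T and NK cell markers were. The 4 IL arrays of slide 9 were the dimmest, at 49.3% to 56.8% of probes detected against 58.0% to 66.9% on the others. All 4 were late arrays and 3 of them were sham. Array 8 of the KA day 7 group went against its label in part: its activated microglia and macrophage level, the mean log2 deviation of the list from the sham arrays, was 0.24. The other 7 KA arrays of that day had 2.29 to 2.67, and the 4 sham arrays of that day -0.11 to 0.21. In its immediate early genes array 8 lay with KA, at a level of -0.07. There the other 7 KA arrays had -0.17 to 0.35 and the 4 sham arrays -0.72 to -0.32. Its Fos value was 8.54, against at most 7.51 in sham of that day, and its Arc value 10.49, against at most 9.46. Array 8 stayed in the group, and the results are given with and without it.

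The kainate effect differed between the stages for 116 genes by limma's moderated test with Benjamini-Hochberg adjustment over all genes at an adjusted p under 0.05. They are 1.06% of the genes tested. For 84 genes, 0.77%, it was higher at day 7 than late, and for 32 genes, 0.293%, it was lower. Without array 8 the counts were 366 higher (3.36%) and 96 lower (0.88%), or 4.24% in all, and all 116 genes were among them. Without slide 9 they were 84 higher (0.77%) and 61 lower (0.559%), or 1.33% in all, with 67 and 25 of the 84 and 32 genes still called. The absolute difference of the called genes lay between 0.46 and 2.28 on the log2 scale, and 37 of the 84 and 8 of the 32 exceeded a 2-fold difference. With slide as a fixed block, 26 of the 84 and 15 of the 32 were called. Within slide 1, which holds 1 array of each IL group, the median difference was 0.93 over the 84 genes and -0.73 over the 32. On slide 6, with day 28 alone as the late stage, it was 0.79 and -1.04. These arrays also entered the fit that called the genes, so the within-slide values are a description and no independent check.

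KA minus sham at day 7 was called for 850 genes higher (7.8%) and 395 lower (3.62%), 11.4% in all, and late for 769 higher (7.05%) and 519 lower (4.76%), 11.8% in all. With median scaling of the raw intensities those splits were 597 and 63 at day 7 and 575 and 77 late. Across genes the day 7 effect and the late effect had a Pearson correlation of 0.65 and a Spearman rank correlation of 0.45 over 10903 genes, which are not independent replicates. The median of the difference over all genes was -0.01.

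**Figure D1:**
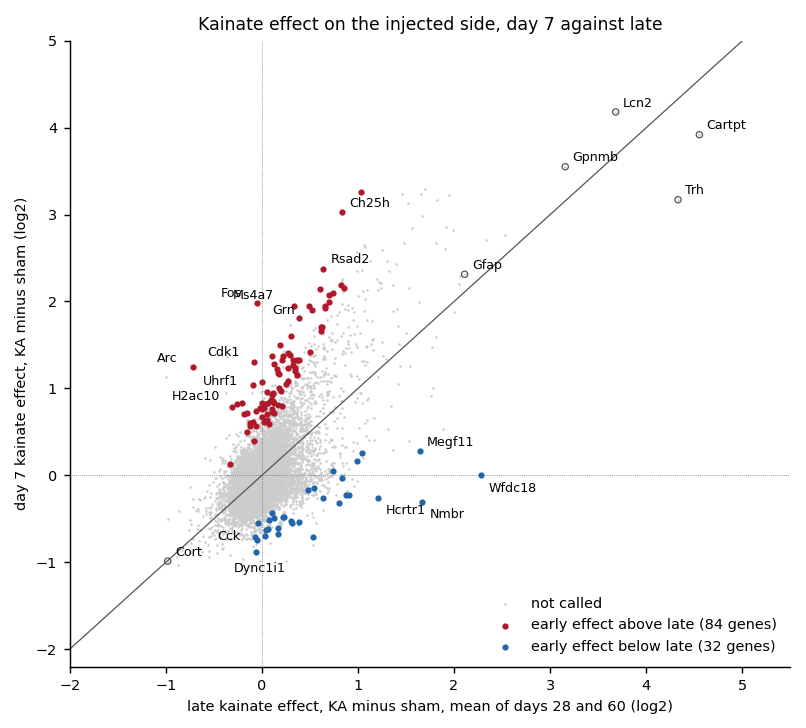
Each point is 1 of 10903 genes, with the late kainate effect on the x axis and the day 7 effect on the y axis, both in log2 units. The 84 genes in red lie above the diagonal and the 32 in blue below it; open circles mark named genes that were not called, such as Gfap and Gpnmb close to the diagonal.

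The called genes fell into a few patterns. Of the 84 genes with the higher early effect, 62 were higher in KA at day 7 and not called late, 19 were higher at both stages, 2 were higher at day 7 and lower late, and 1 was lower late and not called at day 7. Of the 32 genes with the lower early effect, 15 were called higher late but not at day 7, 14 were lower at day 7 and not called late, 2 were lower at day 7 and higher late, and 1 was called at neither stage. By single day the kainate effect was called for 363 genes higher (3.33%) and 146 lower (1.34%) at day 28, 4.67% in all, and for 344 higher (3.16%) and 1.37% of genes lower at day 60, 4.52% in all. The median effect of the 84 genes was 1.07 at day 7, 0.22 at day 28 and 0.11 at day 60. For the 32 genes it was -0.48 at day 7, 0.34 at day 28 and 0.28 at day 60.

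Genes of dividing cells had a kainate effect at day 7 and a median near 0 over the pooled late days. Of 8 mitosis genes tested (16 listed), 5 were called higher early and 0 lower. The list's median difference was 0.78, with a median effect of 0.81 at day 7 and 0.06 late, against -0.04 and -0.02 over all genes. By single late day the list's median effect was 0.25 at day 28 and -0.12 at day 60. At day 28 its level was 0.05 to 0.43 in KA and -0.14 to 0.04 in sham, without overlap. At day 60 it was -0.13 to 0.15 in KA and -0.11 to 0.40 in sham, where the highest sham array is of slide 9. Of 14 DNA replication genes tested, 2 were called higher early and 0 lower, at a median difference of 0.33. Without array 8 these counts were 6 of 8 and 4 of 14.

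H2ac10, a gene of the core histone H2A, had the lowest p of all genes. It lay at 8.81, 9.21 and 9.47 (lowest, median, highest log2 value) in KA at day 7, against 8.30, 8.51, 8.42 and 8.20 in the sham arrays of that day. In the late stage it lay at 7.95, 8.23 and 8.69 in KA and 8.32, 8.54 and 8.95 in sham. Every KA array of day 7 was therefore above every sham array of its day and above every late KA array, while late KA and late sham overlapped. Of all genes, 0.0275% had every KA array of day 7 above every late KA array, and H2ac10 was the only called one. The difference between stages was 1.09 ± 0.16 (SE; adjusted p = 0.00027 by limma), from an effect of 0.82 at day 7 and -0.26 late.

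Uhrf1 encodes the protein that binds hemimethylated DNA at the replication fork. It lay at 5.99, 6.86 and 7.10 in KA at day 7, against 5.75, 5.84, 5.69 and 5.67 in sham, with array 8 at the lowest KA value and 6.53 the next. At the late days the values were 5.34, 5.71 and 6.11 in KA and 5.38, 5.85 and 6.16 in sham. The difference was 1.13 ± 0.18 (adjusted p = 0.000578 by limma). It was detected on all 8 KA arrays of day 7 but on 5 of 18 late KA arrays.

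Cdk1, the kinase that starts mitosis, was not well above background on any sham array of day 7 and was at least 1.63-fold higher in KA at that day. In KA at day 7 it lay at 5.44, 6.71 and 7.02, with array 8 lowest and 6.27 next, and late at 4.69, 5.36 and 6.07. Late sham reached 6.74 on 1 array. The difference was 1.39 ± 0.27 (adjusted p = 0.00708 by limma).

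Other called genes of the cell cycle had smaller differences. Cdc20, which activates the anaphase-promoting complex, differed by 0.90 ± 0.16 and 7 of 8 KA arrays of day 7 were above every late KA array. Such a separation of at least 7 arrays held for 39 of the 84 genes called higher early and for 104 of all 10903 genes. Plk1, a mitotic kinase, differed by 0.69, and Birc5, survivin, by 0.77. Nusap1, a spindle protein, was called but was not well above background on any sham array, and was at least 1.18-fold higher in KA than in sham at day 7. It is among the 5 mitosis calls and passed the detection filter through KA arrays alone. Mcm5, a subunit of the replicative helicase, differed by 0.80, Cdk2, the kinase of the G1 to S transition, by 0.83, and Pbk, a mitotic kinase, by 1.30. Top2a (0.48, adjusted p = 0.28 by limma) and Prc1 (1.03, adjusted p = 0.0574) did not pass; without array 8 Prc1 did (1.25) and Top2a did not. Probes of Cdc20 disagreed in part, since 1 of its 3 other probes had a difference of -0.00. The 2 other probes of Cdk2 gave 0.28 and 0.32, and the 2 of Birc5 0.59 and 0.88.

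The promoters of 2 of these genes, and of 2 interferon-linked genes, are printed because a short motif known from their class lies in them. RefSeq promoters of build GRCm38.p6 run from 250 bases before to 50 after the start and are written 5′ to 3′ on the gene's strand, with the motif in capitals. The letters TTTGAA (known as the CHR of cell-cycle genes), searched on both strands, start at position -18 from the gene's start in Cdc20 and at -71 and -15 in Cdk1.
Cdc20, chr4:118437294-118437593, minus strand: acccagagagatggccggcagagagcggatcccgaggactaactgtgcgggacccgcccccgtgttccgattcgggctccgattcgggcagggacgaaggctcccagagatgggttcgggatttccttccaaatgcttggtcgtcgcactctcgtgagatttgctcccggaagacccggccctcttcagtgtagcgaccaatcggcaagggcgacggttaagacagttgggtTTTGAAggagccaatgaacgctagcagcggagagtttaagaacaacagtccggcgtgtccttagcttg
Cdk1, chr10:69352863-69353162, minus strand: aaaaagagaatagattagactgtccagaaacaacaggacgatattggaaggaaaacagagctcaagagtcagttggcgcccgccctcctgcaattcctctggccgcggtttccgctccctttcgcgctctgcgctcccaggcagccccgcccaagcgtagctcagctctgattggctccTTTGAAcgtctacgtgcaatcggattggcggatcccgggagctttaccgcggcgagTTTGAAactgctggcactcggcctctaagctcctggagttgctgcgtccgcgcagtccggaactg
The interferon-stimulated response element (ISRE), searched on both strands as 2 copies of GAAA with 2 bases of any kind between them, starts at position -120 on the opposite strand in Rsad2 and at -29 on the gene's strand in Phf11a.
Rsad2, chr12:26456403-26456702, minus strand: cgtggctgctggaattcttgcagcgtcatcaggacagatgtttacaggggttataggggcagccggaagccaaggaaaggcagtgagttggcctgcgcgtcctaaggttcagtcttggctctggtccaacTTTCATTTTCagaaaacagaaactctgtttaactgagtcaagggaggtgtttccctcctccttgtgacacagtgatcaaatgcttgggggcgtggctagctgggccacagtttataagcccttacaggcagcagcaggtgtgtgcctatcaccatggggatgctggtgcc
Phf11a, chr14:59297473-59297772, minus strand: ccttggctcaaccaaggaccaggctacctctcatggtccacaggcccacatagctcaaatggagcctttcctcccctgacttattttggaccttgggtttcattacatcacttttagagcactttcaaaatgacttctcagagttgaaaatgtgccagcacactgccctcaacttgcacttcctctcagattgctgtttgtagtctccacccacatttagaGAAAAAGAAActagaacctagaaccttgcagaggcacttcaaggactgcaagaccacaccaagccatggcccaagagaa

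Of the 84 genes with the higher early effect, 64 had a RefSeq promoter in the table, with 84 promoters in all. TTTGAA was found in 14.3% of these promoters, against 11.8% of the 11372 promoters of all genes tested. The ISRE was found in 8.33% against 2.97%. TGACGTCA, the cyclic AMP response element, was found in 3.57% against 2.73%. Among the 32 genes with the lower early effect, 25 had a promoter, and of their 39 promoters 12.8% held TTTGAA, 0.0% the ISRE and 2.56% TGACGTCA. A match describes the letters and nothing about a factor.

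Many microglial and macrophage genes were higher in KA at both stages, and some of them passed the test of the difference between stages. All 12 tested activated microglia and macrophage genes (16 listed) had a positive difference, 2 were called higher early and 0 lower, and the median difference was 0.91. The sign was also positive for 826 of the 850 genes called higher in KA at day 7, and for 5194 of all 10903 genes. At day 7, 11 of the 12 were higher in KA, and late 10 of 12, with 1 lower (Lpl, lipoprotein lipase). Of the 10 homeostatic genes, 9 were higher in KA at day 7 and 5 late. Over all genes 7.8% were called higher at day 7 and 7.05% late. Of 10 homeostatic microglia genes tested, 1 was called and the median was 0.75. Of 10 Fc receptor and phagocytosis genes, 2 were called (Mertk, and Itgam, whose detection was limited as given below), at a median of 0.80. Of 15 lysosome genes, 4 were called at a median of 0.81. Without array 8 the counts were 6 of 12, 5 of 10, 8 of 10 and 10 of 15.

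Ms4a7 encodes a membrane protein of macrophages. It lay at 6.23, 7.95 and 8.58 in KA at day 7, with array 8 lowest and 7.55 next, against 6.08, 5.95, 5.79 and 5.69 in sham. On the late arrays it lay at 5.68, 6.22 and 7.03 in KA and at 5.46, 5.84 and 6.47 in sham. The difference was 1.61 ± 0.30 (adjusted p = 0.00535 by limma). Of the KA arrays of day 7, 7 of 8 lay above every late KA array. At least 7 did so for 39 of the 84 genes called higher early and for 104 of all 10903 genes.

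Ch25h, which makes the oxysterol 25-hydroxycholesterol, had the largest difference among the 12 lowest-p genes of this direction. It was not well above background on any of the 14 sham arrays. In KA it was at least 5.94-fold higher than sham at day 7 and at least 1.19-fold higher late. Its values were 5.57, 8.75 and 9.37 in KA at day 7, with 8.37 next above array 8, and 5.34, 6.04 and 7.57 in late KA. By single late day KA lay at 6.02, 6.65 and 7.57 at day 28 and at 5.34, 5.71 and 6.04 at day 60. Every KA array of day 28 was above every sham array of that day, which reached 5.62. At day 60 KA and sham overlapped, with sham up to 5.51. The fitted difference was 2.19 ± 0.42 (adjusted p = 0.00548 by limma).

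Grn, progranulin of the lysosome, lay at 9.79, 11.97 and 12.46 in KA at day 7, with 11.65 next above array 8, against 9.93, 10.01, 9.84 and 9.62 in sham. Its late values were 9.68, 10.23 and 11.30 in KA and 9.06, 9.84 and 9.87 in sham. The difference was 1.38 ± 0.30 (adjusted p = 0.0158 by limma). The other called lysosome genes were Gusb, beta-glucuronidase, at 1.38, Ctsz, a cathepsin, at 1.29 and Lamp2, a lysosomal membrane protein, at 0.81.

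Further genes of myeloid cells were called. Adgre1, the macrophage marker F4/80, differed by 1.32 and Cd180, a toll-like receptor relative, by 1.54. Itgam, the integrin CD11b, was called too, but it was not well above background on any sham array and was detected on 1 of 18 late KA arrays. It passed the filter of detection on at least 4 IL arrays only with KA arrays of day 7. Those are the arrays where it was high, so its call is no independent support. It was at least 1.12-fold higher in KA than in sham at day 7. Cd180 was not well above background on any sham array of day 7 and was at least 3.46-fold higher in KA there. Mertk, a receptor for apoptotic cells, differed by 0.76, Fcrls, a microglial Fc receptor relative, by 1.36 and Ms4a6d by 1.37. Lpxn, a paxillin-family adaptor, differed by 1.13. Aif1, the microglial protein Iba1, did not pass at 1.06 (interval 0.34 to 1.78, adjusted p = 0.148 by limma), but did without array 8 (1.31, adjusted p = 0.00404). Of the blood monocyte and border macrophage markers 5 were tested and 0 called, at a median difference of 0.08, and of 4 T and NK cell markers 0 were called. These markers were detected on 4 to 39 and on 11 to 18 of the 40 IL arrays.

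**Figure D2:**
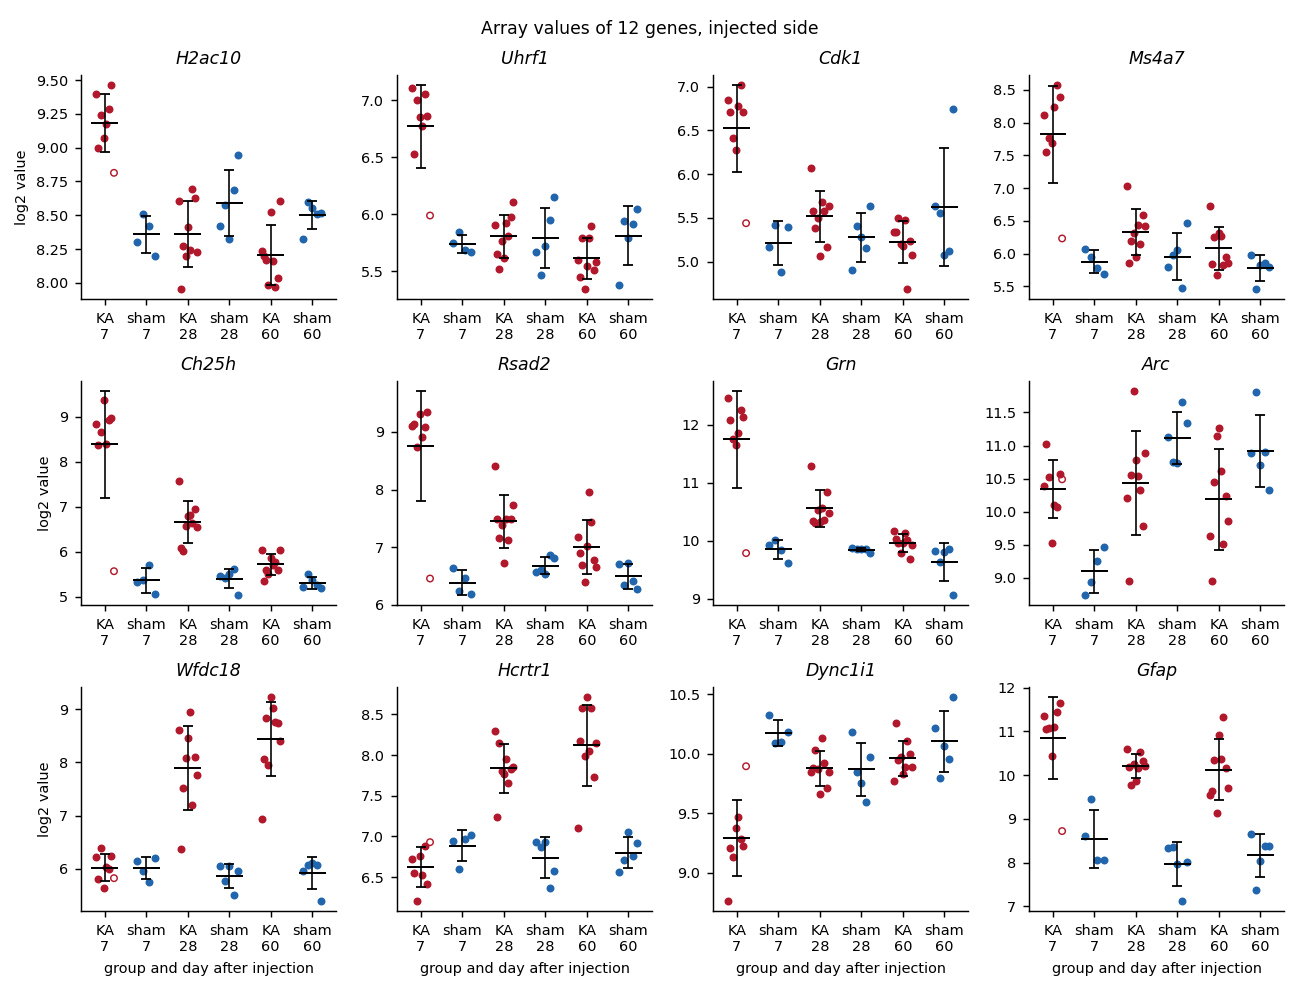
Log2 values of 12 genes on each IL array by group (KA red, sham blue) and day; the open circle is KA day 7 array 8 and the bars are mean and SD. Uhrf1, Cdk1 and Ms4a7 are high in KA at day 7, Wfdc18 and Hcrtr1 in KA at days 28 and 60, and Arc is low in sham at day 7.

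Interferon response genes had a uniform direction and few calls. All 13 tested members (19 listed) had a positive difference, at a median of 1.0, and 1 was called, whereas 11 were called without array 8. A positive difference was also found for 826 of the 850 genes called higher in KA at day 7, and for 5194 of all 10903 genes. The shared sign is therefore not particular to this list. At day 7, 11 of 13 were higher in KA, and late 8 of 13, against 7.8% and 7.05% of all genes. The called member was Rsad2, the antiviral protein viperin, whose ISRE is printed above. It lay at 6.46, 9.10 and 9.34 in KA at day 7, with 8.74 next above array 8, against 6.64, 6.23, 6.47 and 6.18 in sham. At days 28 and 60 it lay at 6.40, 7.17 and 8.40 in KA and at 6.27, 6.59 and 6.86 in sham. The difference was 1.74 ± 0.38 (adjusted p = 0.0158 by limma). Usp18, which restrains interferon signalling, had 1.59 (interval 0.62 to 2.57, adjusted p = 0.0935), and Cxcl10, a chemokine induced by interferon, 1.78 (0.74 to 2.82, adjusted p = 0.0778). Without array 8 both were called, Usp18 at 1.96 (adjusted p = 0.000693 by limma) and Cxcl10 at 2.18 (adjusted p = 0.000322). Trex1, an exonuclease that degrades cytosolic DNA, was called at 0.87.

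Chemokines, complement and antigen presentation had no called gene at 13, 5 and 13 tested members, with medians of 0.76, 1.03 and 0.52. On the opposite side these medians were 0.84, 1.34 and 0.39. Without array 8, 7 chemokines and cytokines, 3 complement genes and 4 antigen presentation genes were called. Within complement, C1qa had a difference of 1.16 (interval 0.40 to 1.92; called without array 8 at 1.48) and C4b 0.16 (-0.52 to 0.84; 0.41 without array 8, not called), while both were called higher at each stage.

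**Figure D3:**
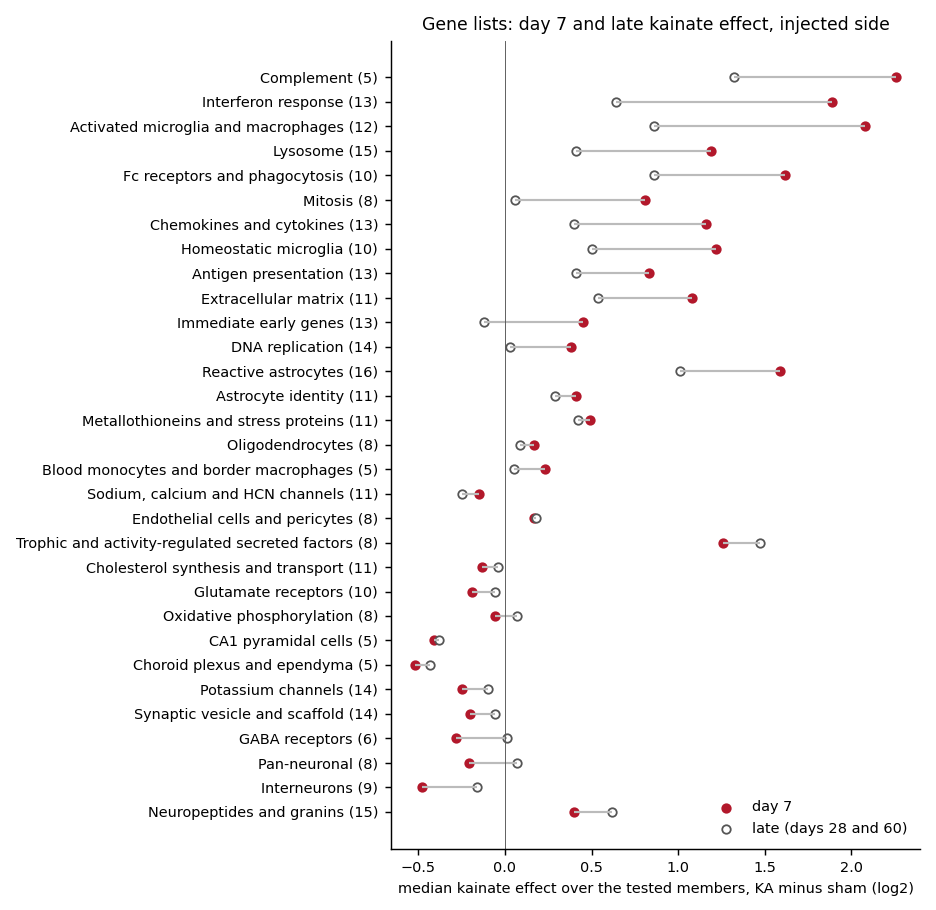
Median kainate effect at day 7 (filled) and late (open) over the tested members of each list with 5 or more, ordered by the median of the members' own difference between stages. Complement, interferon, microglia, lysosome and mitosis lists are higher at day 7; the neuropeptide list is higher late.

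**Figure D4:**
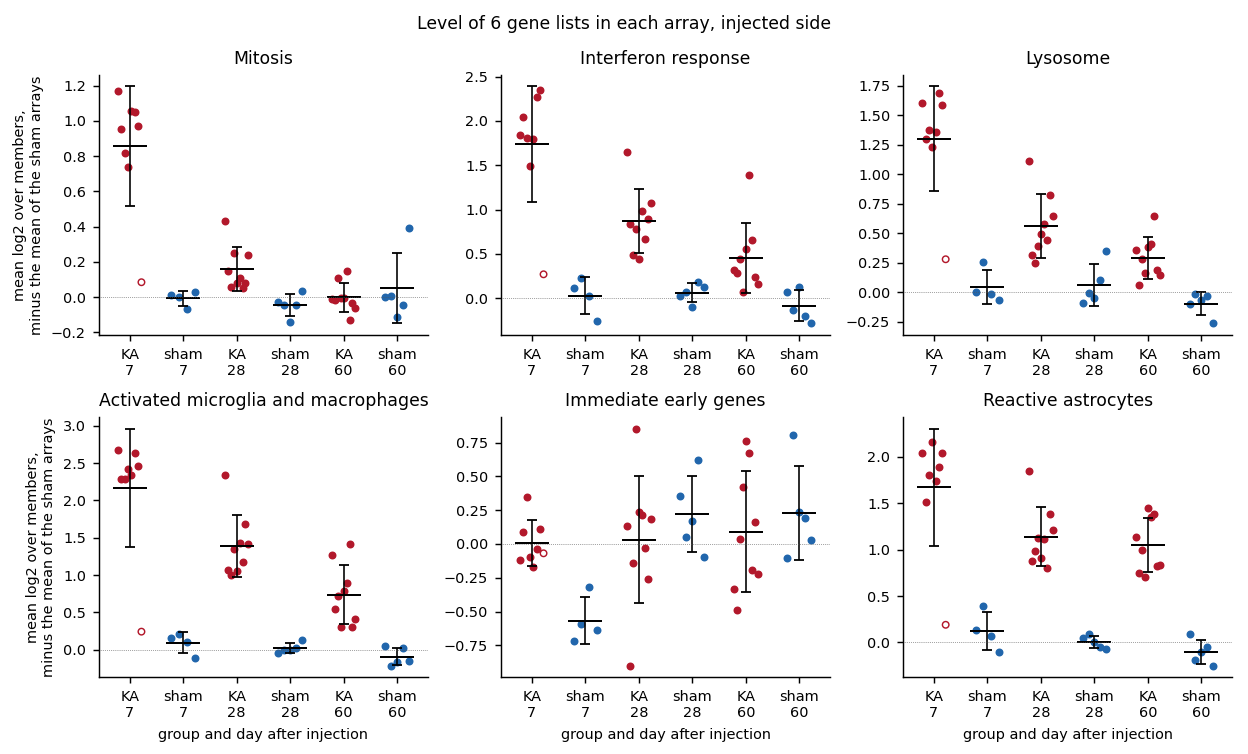
Mean log2 level of 6 lists on each IL array, relative to the 14 sham arrays, by group and day (KA red, sham blue, open circle KA day 7 array 8, bars mean and SD). The mitosis list is raised in 7 of 8 KA arrays of day 7, and the reactive astrocyte list at days 7, 28 and 60.

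Several of the strongest kainate effects had no called difference between the stages. Of 16 reactive astrocyte genes tested, 0 were called, at a median difference of 0.30 (0.62 without array 8). Of these genes 11 were higher in KA at day 7 and 10 late, against 7.8% and 7.05% of all genes. Gfap, the astrocyte filament protein, lay at 8.72, 11.08 and 11.65 in KA at day 7, against 8.60, 9.46, 8.05 and 8.05 in sham. Its values late were 9.14, 10.20 and 11.33 in KA and 7.11, 8.18 and 8.65 in sham. Its difference was 0.20, with a 95% interval of -0.68 to 1.09 (adjusted p = 0.909 by limma). Gpnmb, a glycoprotein of phagocytic macrophages, had 0.39 (-0.66 to 1.45), and Cst7, a lysosomal protease inhibitor, 0.69 (-0.26 to 1.64). Without array 8 the differences were 0.51 for Gfap, 0.84 for Gpnmb and 1.03 for Cst7, and none of them was called. Lcn2, lipocalin 2, was not well above background on any sham array. It was at least 14.2-fold higher in KA at day 7 and at least 7.6-fold late. Slc1a2, the main glutamate transporter of astrocytes, had 0.14 (-0.17 to 0.45; 0.22 without array 8) and Aqp4, their water channel, 0.58 (-0.11 to 1.27). These intervals leave room for a difference that the test did not call. Without array 8, 3 of the 16 astrocyte genes were called higher early, and Gfap was not (adjusted p = 0.57).

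A further set of genes rose late and was at sham level at day 7. Wfdc18, a small secreted protein with a WAP domain, had the largest difference of all called genes. It lay at 5.63, 6.01 and 6.38 in KA at day 7, against 6.14, 5.96, 5.75 and 6.2 in sham, and these overlapped. The late arrays lay at 6.37, 8.25 and 9.23 in KA and at 5.38, 6.00 and 6.10 in sham, where the lowest KA value exceeded the highest sham value. The difference was -2.28 ± 0.38 (adjusted p = 0.000844 by limma), from an effect of -0.00 at day 7, 2.04 at day 28 and 2.52 at day 60. The sham values and the KA values of day 7 lay near the lowest detected signal, which was 5.71 to 6.36 by array. Their likeness at day 7 is that of values near background, which also limits the fitted size.

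Nmbr, the receptor of neuromedin B, lay at 5.48, 5.86 and 6.31 in KA at day 7, against 6.64, 6.12, 5.67 and 6.49 in sham. At the late days the values were 6.21, 7.59 and 8.92 in KA and 5.10, 6.02 and 6.77 in sham. Late, 16 of the 18 KA values exceeded the highest sham value. The difference was -1.98 ± 0.32 (adjusted p = 0.000844 by limma). The lowest Nmbr values of KA at day 7 (5.48) and of late sham (5.10) were below the lowest detected signal of their arrays, 5.71 and 6.26. Background therefore limits this size too.

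Hcrtr1, the orexin receptor 1, lay at 6.2, 6.64 and 6.93 in KA at day 7, against 6.94, 6.60, 6.97 and 7.02 in sham. On the late arrays it lay at 7.10, 7.98 and 8.71 in KA and at 6.37, 6.81 and 7.06 in sham, so that all 18 late KA arrays were above every late sham array and above all 8 KA arrays of day 7. The same separation of KA arrays held for the called genes Brinp3 and Bmp3, and for 0.0642% of all genes. The difference of Hcrtr1 was -1.47 ± 0.23 (adjusted p = 0.000578 by limma), and its other probe gave -1.13.

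Brinp3, a neuronal protein of the BRINP family, had -1.10 ± 0.21. It lay at 7.75, 7.85 and 8.27 in KA at day 7, against 8.16, 8.15, 8.27 and 8.06 in sham, and late at 8.49, 8.89 and 9.72 in KA and 7.68, 8.12 and 8.78 in sham. Bmp3, a secreted protein of the TGF-beta family, had -1.12 and Megf11, a cell surface protein with EGF repeats, -1.37. The 3 other probes of Megf11 gave smaller differences, from -0.87 to -0.26. Grm7, a presynaptic metabotropic glutamate receptor, had -0.64 and was called higher late (0.48). No other of the 10 tested glutamate receptor genes was called, at a median of -0.12.

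Another set was lower in KA at day 7 and near sham late. Dync1i1, a dynein chain of neurons, lay at 8.76, 9.26 and 9.89 in KA at day 7, with array 8 highest, against 10.33, 10.08, 10.10 and 10.18 in sham. Its late values were 9.66, 9.89 and 10.26 in KA and 9.59, 9.96 and 10.48 in sham, which overlapped. The difference was -0.81 ± 0.16 (adjusted p = 0.007 by limma), and its other probe gave -0.46. Cck, cholecystokinin, lay at 11.17, 11.29 and 12.06 in KA at day 7, with array 8 highest, against 12.22, 12.22, 12.12 and 12.27 in sham, and late at 11.71, 12.19 and 12.64 in KA and 11.96, 12.21 and 12.61 in sham. Its difference was -0.69 ± 0.17 (adjusted p = 0.0375 by limma). Cd200, a ligand that restrains microglia, had -0.85, and its other probe -0.25. The Cd200 mean was 8.41 at day 7 and 7.93 late in sham, and 7.73 and 8.11 in KA, so sham changed more than KA. Sfxn3, a mitochondrial serine transporter, had -0.71 (other probe -0.33) and Spock2, a proteoglycan of the brain matrix, -0.67. Slitrk1, a synaptic adhesion protein, had -0.71 (other probe -0.73) and Mat2b, a subunit of methionine adenosyltransferase, -0.92 (other probe -1.29). Both were lower in KA at day 7 and higher late. Rap1gap, which inactivates the GTPase Rap1, had -0.83 and was called at neither stage.

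Levels of general neuronal markers were also lower in most KA arrays of day 7. The mean pan-neuronal level was -0.21 to -0.03 in 7 KA arrays of day 7 and 0.17 in array 8, against 0.10 to 0.19 in sham, so the 7 arrays lay below every sham array of that day. Late it was -0.26 to 0.13 in KA and -1.36 to 0.16 in sham, and the lowest sham value is an array of slide 9. Of 8 pan-neuronal genes tested, 7 had a negative early minus late difference, at a median of -0.30, and 0 were called by limma. The median of that difference was -0.20 without slide 9, -0.20 with slide as a fixed block and -0.31 without array 8. None of 9 interneuron, 5 CA1 or 4 CA2 and CA3 markers was called for that difference either, with or without array 8. For the kainate effect itself, 4 of 9 interneuron markers fell at day 7 (median -0.48) and 2 late. Of the CA1 markers 1 of 5 fell at day 7 (median -0.41) and 2 late. Over all genes 3.62% were called lower at day 7 and 4.76% late, with median effects of -0.04 and -0.02. With so few markers, 1 or 2 calls say little about a cell type. The part of neuronal number in these results was not tested.

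Of 15 neuropeptide genes tested, 13 had a negative difference, at a median of -0.48. Of these 1 was called lower early (Cck) and 0 higher, against 2 lower and 0 higher without array 8. Trh, the thyrotropin-releasing hormone precursor, lay at 5.87, 9.83 and 10.58 in KA at day 7, with array 8 lowest and 7.2 next, against 5.88, 5.58, 5.73 and 5.94 in sham, and late at 7.82, 10.16 and 12.08 in KA and 5.04, 5.87 and 6.47 in sham. Its difference was -1.16 (interval -2.64 to 0.32, adjusted p = 0.563 by limma). Without array 8 it was -0.72. Cartpt had -0.63 (-2.38 to 1.11), and -0.01 without array 8. Npy had -0.71 (-1.15 to -0.27, adjusted p = 0.0956), Pdyn -0.29 (-1.22 to 0.63; -0.09 without array 8) and Gal -0.37 (-1.18 to 0.45). Bdnf, the neurotrophin, had -0.28 (-1.02 to 0.46; -0.17 without array 8) and Ccn5, a matricellular protein, -0.84 (-1.52 to -0.17, adjusted p = 0.252). Cort, an interneuron peptide, had -0.01 (-0.50 to 0.48), Scn3b, a sodium channel subunit, -0.02 (-0.56 to 0.51), and Dcx, a marker of newborn neurons, -0.10 (-0.57 to 0.37).

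For most called genes the KA arrays carried the larger part of the difference between stages. KA arrays of day 7 against late KA arrays gave 835 genes higher (7.66%) and 683 lower (6.26%), 13.9% in all, and 79 of the 84 and 30 of the 32 genes were among them. Sham arrays of day 7 against late sham gave 0 genes higher and 5 lower (0.0459%), namely Arc, Cdk16, Edrf1, Itpkc and Junb. Other settings moved these sham calls: 0 genes were called by limma with slide as a fixed block or with median scaling, and 1 without sham day 7 array 1, 2 or 3, and 2 without array 4. They numbered 2 without sham day 28 array 1 or 3 or sham day 60 array 3, 3 without sham day 60 array 4, 8 without KA day 28 array 4, and 12 without slide 9. At an unadjusted p under 0.05 there were 586 of 10903 genes. The sham part was larger than the KA part for 7 of the 84 and 8 of the 32 genes.

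Immediate early genes, which neurons transcribe within minutes of activity, include Arc and Junb of these 5. Of 13 tested, 3 were called higher early (Fos, Arc, Junb) and 0 lower, at a median of 0.37, and 1 without slide 9. The median was 0.91 within slide 1 and 0.02 within slide 6, there with day 28 as the late stage. Fos, a subunit of the AP-1 factor, lay at 8.54, 8.95 and 9.76 in KA at day 7, against 6.46, 7.2, 7.51 and 7.04 in sham, and late at 6.68, 9.24 and 10.13 in KA and 8.01, 8.84 and 10.01 in sham. Its KA arrays differed between stages by 0.09, and its sham arrays by -1.95, which did not pass (adjusted p = 0.0536 by limma). All 4 sham arrays of day 7 were below every late sham array, and the difference was 2.03 ± 0.51 (adjusted p = 0.0375 by limma). Arc, a synaptic protein of activity, lay at 9.53, 10.44 and 11.03 in KA at day 7, against 8.74, 8.94, 9.25 and 9.46 in sham, and late at 8.95, 10.39 and 11.83 in KA and 10.33, 10.89 and 11.81 in sham. Its KA arrays differed by 0.03 and its sham arrays by -1.92, for a difference of 1.96 ± 0.43 (adjusted p = 0.0158). Junb, another AP-1 subunit, had 0.01 in KA and -1.08 in sham, and Itpkc, an inositol trisphosphate kinase, 0.01 and -0.65. Edrf1 had -0.03 and -0.49, and Cdk16 -0.70 and -0.91. Without slide 9 the adjusted p was 0.0684 for Fos and 0.0615 for Junb.

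**Figure D5:**
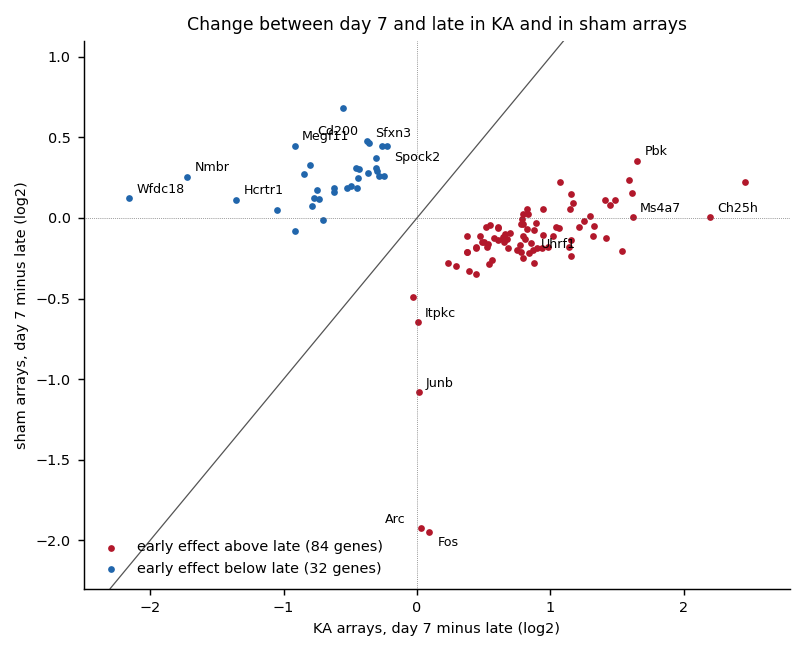
For each of the 116 called genes, the day 7 minus late difference in KA arrays (x axis) and in sham arrays (y axis), both in log2 units. The sham median was -0.12 over the 84 genes in red and 0.26 over the 32 in blue, against 0.80 and -0.54 in KA. Arc, Fos, Junb and Itpkc lie near 0 in KA and below 0 in sham.

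The late stage pools days 28 and 60. The kainate effect at day 60 minus that at day 28 was called for 0 genes by limma, with 865 genes at an unadjusted p under 0.05, and for 1 gene with array weights. Each late day alone gave other counts of early against late differences: 5 higher and 5 lower with day 28 alone, and 102 higher and 49 lower with day 60 alone. The difference between these counts was not tested.

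On the opposite side the same comparison called 58 genes higher (0.532%) and 2 lower (0.0183%), 0.55% in all. Of the 84 IL genes, 12 were among the 58, which is 14.3% of the first list and 20.7% of the second. Of the 32 IL genes, 0 were called on the opposite side by limma. The sign of the difference was the same there for 82 of the 84 and 30 of the 32 genes. The median difference of the 84 genes was 0.93 on the injected side and 0.49 on the opposite side, and that of the 32 genes -0.80 and -0.31. These genes were chosen by their difference on the injected side, so a larger median there follows in part from the choice and compares no sides. List medians were 0.97 on the opposite side against 0.80 for Fc receptors, 0.58 against 0.30 for reactive astrocytes, and 0.37 on both for immediate early genes. They were lower there for activated microglia (0.76 against 0.91), interferon (0.85 against 1.0), lysosome (0.59 against 0.81) and mitosis genes (0.21 against 0.78). The list medians were not tested between sides. Both sides come from the same animals. The difference between sides, taken within each animal, was called for 0 genes by limma, with 288 at an unadjusted p under 0.05 (2.64% of all genes) and 2 called with array weights. Wfdc18 had a side difference of -2.22 (adjusted p = 0.0925 by limma) and -0.06 on the opposite side. Cdk1 had 1.23 (adjusted p = 0.302) and 0.16, and Nmbr -1.62 (adjusted p = 0.351) and -0.36. Grn had 0.41 (adjusted p = 1.0) and was called at 0.97 on the opposite side.

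Leaving out 1 array at a time moved the counts between 16 and 366 for genes higher early and between 11 and 96 for genes lower early. Named by array, the counts of higher and lower genes were 24 and 11 without sham day 7 array 1, 38 and 17 without array 2, 18 and 12 without array 3, and 16 and 12 without array 4 of that group. They were 36 and 21, 33 and 17, and 42 and 19 without KA day 7 array 1, 6 or 7, 48 and 19 without array 2, and 366 and 96 without array 8. Without KA day 28 array 1 they were 137 and 38. Of the 84 and 32 genes, 11 and 10 were called in every such fit.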

How the data were processed

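Per the labels, total RNA of hippocampus was kept in RNAlater, isolated with an Ambion kit and labelled with biotin, with 1 IL and 1 CL array for each of 40 mice. Log2 values come from the deposited series matrix; their medians are equal on all arrays, so they were scaled between arrays by the authors; how is not stated. A deposited table holds an intensity, with values below 0, and a deposited detection p-value per probe. BeadStudio, GenomeStudio and Partek were used, per the submitters' processing notes, with no version stated. The second block of the intensity table (4453 of 25697 lines) was left out because its columns are shifted. No column of per-sample values was left unused (0).

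Probes with 1 symbol and a detection p under 0.05 on at least 4 IL arrays were kept (15860, with 5384 removed), and the brightest probe stood for a gene (10903 genes, 2876 of them with more kept probes). Among the called genes 38 had another kept probe, and in 2 of these 1 probe had the opposite sign. Of the called genes, 11 were detected on no sham array and passed the detection filter through KA arrays alone. The filter thus favours genes that are high in KA. Group means of the 40 IL arrays were fitted with limma 3.58.1 (R 4.3.3, statmod 1.5.0), with two-sided tests and Benjamini-Hochberg adjustment over all genes. The fit was tested on simulated data. CL arrays were fitted alike, and the IL minus CL difference per animal in the same way. The 37 lists (464 members, 342 tested) are described by counts and medians. Where a group had no array with a detected probe, the fold is against the higher, per array, of its own signal and the lowest detected signal, and is written as at least. Named genes were the 12 with the lowest p per direction, up to 4 called per list, 4 per pattern, 5 each way in further contrasts and 22 set genes; Birc5, Prc1, Top2a, C1qa, C4b, Lpl and Phf11a were named after their values were seen. The members and lists were chosen with earlier results of these data known. Precision is limited by the number of arrays, and replicates are separate animals. The series text counts the sham day 60 arrays as KA; the sample labels, which say sham, were followed. Alternatives were another normalization, other filters and probe rules, slide, animal and replicate blocks, array weights, single late days and arrays left out.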

Additional observations from a re-analysis of the deposited data

Results flagged for a closer look

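The kainate effect differed between day 7 and the late stage for 84 genes in the higher and 32 in the lower direction, by the test of the difference itself. Of 168 groups of values looked at for a lone array far from the rest, 22 had one, where chance gives about 1 in 20. The groups are not independent, since the same arrays recur over genes and over lists that hold some of these genes. The 22 therefore count a few arrays several times and are no test against that rate. In KA at day 7 the lone array was array 8, with log2 values of 5.44 for Cdk1, 6.23 for Ms4a7, 5.57 for Ch25h, 6.46 for Rsad2, 9.79 for Grn and 8.72 for Gfap. Its mean list levels were 0.08 for mitosis, 0.27 for interferon response, 0.28 for lysosome, 0.24 for activated microglia and 0.17 for pan-neuronal genes. In KA at day 60, array 1 stood apart for Cck (11.76), array 6 for the interferon level (1.39) and array 7 for the pan-neuronal level (-0.26). In sham at day 28, array 5 stood apart for Grn (9.80) and the pan-neuronal level (-1.36), and array 4 for Nmbr (5.10). In sham at day 60, array 5 stood apart for Grn (9.06), Wfdc18 (5.38), Cck (12.61), Trh (5.04) and the mitosis level (0.40). KA day 60 array 7, sham day 28 arrays 4 and 5 and sham day 60 array 5 are the arrays of slide 9.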

How the results depend on the processing

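Counts below are genes called, and the cause of each shift was not tested. For the early minus late effect, median scaling gave 22 (17 higher, 5 lower), a fixed slide block 55 (32 higher) and array weights 1004 (627 and 377). The 80-array fit with animal as a block gave 134 higher, day 28 alone 10 (5 and 5), day 60 alone 49 lower, and leaving out arrays under 55% detection 56 lower. Leaving out slide 9 gave 61 lower, and leaving out slide 9 with KA day 7 array 8 gave 717 (520 and 197); these 2 settings were chosen after seeing the data. Leaving out 1 array gave 28 to 462 (16 to 366 higher, 11 to 96 lower). The day 7 effect had 660 with median scaling, 3106 with weights, 2021 without slide 9, 2536 without slide 9 and array 8, and 816 to 1620 with 1 array left out. The late effect had 652 with median scaling and 2042 with weights, and day 60 minus day 28 had 1 with weights and 1 without slide 9 and array 8. KA day 7 minus late KA had 735 with median scaling (566 higher, 169 lower), 2883 with weights, 2496 without slide 9 and 2917 without slide 9 and array 8. Sham day 7 minus late sham had 0 with median scaling, 9 with a strict filter, 10 with the mean of probes, 0 with the slide block, 43 with weights and 12 without slide 9, without slide 9 and array 8, or without the arrays under 55%, and 1 to 8 with 1 array left out. With weights the opposite side had 260 and the difference between sides 2; that difference had 1 with 1 array left out. The immediate early median was 0.54 with neqc, 0.55 with a strict filter, 0.64 without slide 9, 0.59 without slide 9 and array 8, 0.91 within slide 1, 0.02 within slide 6, and 0.30 to 0.73 with 1 array left out. The cholesterol median was 0.02 with the slide block or without slide 9 and 0.22 within slide 1, the DNA replication median 0.53 and the trophic factor median 0.74 within slide 1. The replicate block gave 128 (99 higher, 29 lower), but the numbers do not pair the arrays: same-numbered arrays correlated at a median of 0.04 (lowest -0.551) and 10 of 40 arrays correlated best with their own number. Of the 45 named and called genes, none reversed; median scaling kept 16, the fixed slide block 27, day 28 alone 10, day 60 alone 36, neqc 40 and the replicate block 42. Signal over background limits the genes not detected in sham arrays, and 4 sham arrays at day 7 limit every early effect.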

Other observations

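Several called genes known to respond to interferon stood outside the list used above; they were grouped after their values were seen, so no test is given. Ifi27l2a had an early minus late difference of 2.23, from 3.26 at day 7 and 1.03 late. Nlrc5, which activates class I antigen presentation genes, had 0.95, Phf11a 1.1 and Trim30a 0.85. Epsti1 had 0.82, Samhd1, a nucleotide hydrolase that limits viruses, 0.76, Apobec3, a cytidine deaminase, 0.66, Pml, of nuclear bodies, 0.65, and Ly6e 0.58. Epsti1, Nlrc5, Phf11a and Trim30a were not well above background on any sham array of day 7, so their fitted values there are no measured levels. All 9 were called higher in KA at day 7, and of them Ifi27l2a was also called higher late.

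Some called genes with a late kainate effect were likewise grouped after their values were seen. Ptpro, a receptor tyrosine phosphatase, had -0.79, from 0.25 at day 7 and 1.04 late. Glra2, a glycine receptor subunit, had -0.69, Ucn, the peptide urocortin, -0.83, Gdpd5, a glycerophosphodiesterase, -0.86, Necab3, a calcium-binding protein, -1.13, and Gpr151, an orphan receptor, -1.24. Ucn was not well above background on any array of day 7. All 6 were called higher in KA late and none was called at day 7.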
